A study of Homo sapiens with 9 samples.

Results

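KCNN2, WTAPP1 and ENO1P1 are 3 of the 35876 gene symbols measured by RNA sequencing in 9 libraries of the HEK293 line, which derives from human embryonic kidney. They were chosen from these same values, because they had the largest fitted rise in Flpo libraries over Cas9 libraries among genes past the test with a mean of at least 50 counts. Their levels are therefore given as a description, with no test. The 3 groups have 3 replicates each and the genotypes CC_Cas9, CC_Cas9_Cre and CC_Cas9_Flpo, called Cas9, Cre and Flpo here. All 3 carry Cas9, an RNA-guided nuclease, and a prefix, CC, that the labels do not explain. Cre and Flpo are recombinases that act at loxP and FRT sites. The series title names a reversible knockout system induced by a chemical, but the labels give neither a chemical, a time nor a targeted gene. Nothing in the labels says whether the replicates were separate cultures or how many clones were used, so the spread between replicates may be technical.

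KCNN2 encodes SK2, a potassium channel of small conductance that opens when calcium binds to the calmodulin held on its tail, and that shapes firing in neurons and repolarisation in heart. WTAPP1 is a processed pseudogene of WTAP, a regulatory subunit of the complex that writes N6-methyladenosine (m6A) in messenger RNA. ENO1P1 is a processed pseudogene of ENO1, the ubiquitous enolase of glycolysis. A processed pseudogene is a copy of a spliced messenger RNA that was put back into the genome, so its sequence resembles the exons of its parent. Sequencing reads from the parent, or from any transcript that runs through the copy, can then be counted to the pseudogene.

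The sequences show how far each transcript can be told from its relative. They come from the GENCODE release 29 transcripts (GRCh38) and are written 5′ to 3′ on the transcript's strand, with capitals at the bases that differ within a pair. The first pair covers chr1:236483180-236483209 on the plus strand for ENO1P1 and chr1:8874864-8874893 on the minus strand for ENO1.
ENO1P1: atccatgccagggagCtctttgactctcgT
ENO1: atccatgccagggagAtctttgactctcgC
The second pair covers chr11:102832009-102832098 on the plus strand for WTAPP1 and chr6:159748277-159748366 on the plus strand for WTAP.
WTAPP1: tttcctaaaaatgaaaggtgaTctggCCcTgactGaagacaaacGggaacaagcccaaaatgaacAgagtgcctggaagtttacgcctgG
WTAP: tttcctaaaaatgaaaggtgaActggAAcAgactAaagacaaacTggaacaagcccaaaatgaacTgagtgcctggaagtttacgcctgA
The last pair covers chr5:114363130-114363219 on the plus strand for KCNN2 and chr1:154869074-154869163 on the minus strand for KCNN3, the gene of the SK3 channel.
KCNN2: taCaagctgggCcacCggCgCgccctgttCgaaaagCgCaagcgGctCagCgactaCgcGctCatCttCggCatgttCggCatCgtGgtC
KCNN3: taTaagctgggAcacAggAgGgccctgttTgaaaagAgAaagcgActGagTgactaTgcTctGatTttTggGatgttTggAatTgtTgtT

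ENO1P1 was the closest to its relative. The whole of its 1304-base transcript aligned to ENO1 with 89 mismatches and 0 gaps, an identity of 93.2%, and the longest identical run was 95 bases. Of its 1274 words of 31 bases, 198 (15.5%) also occurred in ENO1 transcripts. The 400-base transcript WTAPP1-203 aligned to WTAP over 394 bases with 62 mismatches and 44 gap bases. Identity outside the gaps was 84.3%, and the longest identical run was 23 bases. Over all WTAPP1 transcripts, 13 of 3375 words (0.385%) occurred in WTAP and 94 in MMP1. The aligned transcript WTAPP1-203 shared 0 of its 370 words with other genes. The 13 WTAP words were in WTAPP1-202, which also shared 13 with RBM23, so they do not measure the likeness of the aligned copy to WTAP. KCNN2 and KCNN3 aligned over 1279 bases with 20 gap bases, 75.6% identity outside the gaps and a longest run of 20 bases. Of the 6561 KCNN2 words, 0 occurred in KCNN1 or KCNN3.

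The 3 genes lie on 3 chromosomes, all on the plus strand. KCNN2 (chr5:114055545-114496500) is protein-coding, with 10 annotated transcripts, the longest of 4104 bases. WTAPP1 (chr11:102746968-102836766) is annotated as a transcribed processed pseudogene with 5 transcripts, the longest of 2642 bases. Its span covers the metalloproteinase genes MMP10 and MMP1 on the opposite strand, and its exons share 150 bases with MMP1 exons and 32 with MMP3 exons.

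ENO1P1 (chr1:236483165-236484468) has a host gene. All 1304 bases of it lie, on the same strand, within exon 6 of the transcripts EDARADD-202 and EDARADD-204, after the end of their coding sequence at position 236482646, in the 3′ untranslated region. EDARADD encodes an adaptor of the ectodysplasin receptor, which is known from the development of hair, teeth and sweat glands. All 1274 words of ENO1P1 (100%) therefore also occurred in EDARADD transcripts. Reads from inside ENO1P1 carry no letters that separate it from these transcripts, so its counts and those of EDARADD cannot be told apart by sequence alone.

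The deposited totals ranged from 213907 counts in Cre replicate 2 to 8833491 in Flpo replicate 1. Each Flpo library (4989524 to 8833491 counts) was deeper than each Cas9 library (993902 to 3761779) and each Cre library (213907 to 1701730), so depth and group cannot be told apart. Levels below are in CPM, the count relative to the library total, scaled by TMM, edgeR's correction for differences in composition. A floor of 3 counts corresponded to 0.479 to 0.767 CPM in Flpo, 0.857 to 2.49 CPM in Cas9 and 1.46 to 11.2 CPM in Cre, and it covers counting error only. Flpo replicate 2 stood apart from its group: its ACTB share was 0.320% of counts, against 3.71% and 3.51% in replicates 1 and 3. The ACTB share was 0.0668% to 0.128% in Cas9 and 0.105% to 0.523% in Cre, so Flpo replicate 2 was nearer to those groups. Composition also differed in the symbol AC010970.1, which held 9.99% to 21.9% of counts in Cas9 and 17.2% in Cre replicate 1. It held 1.51% in Cre replicate 3 and 3.35% in Flpo replicate 2. Of 8 HEK293 markers, 7 exceeded 3 counts in each group, while PAX2 had at most 1 count in any library. Their summed level was 584 to 1391 CPM in Cas9, 511 to 1095 in Cre and 1586 to 5375 in Flpo. The extraction label speaks of livers, and the 6 liver markers summed to at most 4.87 CPM in any library, with FGB at 0 in all. That highest sum was in Flpo replicate 2. It included 5 ALB, 1 TTR and 2 SERPINA1 counts, genes at 0 in every other library. The 5 fibroblast markers were all detected, at a summed 264 to 894 CPM in Cas9, 550 to 6482 in Cre and 253 to 326 in Flpo. The 5 blood markers summed to 36.7 to 250.2 CPM, with CD3E at 0 throughout. LYZ made up most of that sum, at 64.7 to 638 counts a library, the most in Flpo replicate 2. The part of these markers in the results was not tested. In these bulk libraries, fewer cells carrying a transcript and less of it per cell cannot be told apart.

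KCNN2 reached more than 3 counts in the Flpo libraries alone. It had 99.5, 151.01 and 95.5 estimated counts in Flpo replicates 1 to 3, which were 17.2, 38.6 and 15.2 CPM (mean 23.7 ± 13.0, SD, n = 3). In Cas9 it was listed at 0 in all 3 libraries. In Cre it had 3.00, 0 and 1.20 counts, at 0.831 ± 0.751 CPM (SD, n = 3). The Flpo values do not overlap those of the other groups, and the highest was in replicate 2, the library that stood apart. Pooled over libraries, KCNN2 was at least 46.6-fold higher in Flpo than in Cas9, with the floor of 3 counts taken over the Cas9 group. Without TMM scaling this bound was 33.2-fold. Its pooled ratio of Flpo to Cre was 18.9, with an exact binomial 95% interval of 7.31 to 69.7 that covers counting error only, and without TMM scaling the ratio was 10.9.

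WTAPP1 was the steadiest of the 3 within Flpo. It had 203.6, 174.7 and 280.9 counts, or 35.1, 44.7 and 44.8 CPM (mean 41.5 ± 5.56, SD, n = 3). The Cas9 libraries had 1, 0 and 0 counts (0.277 ± 0.48 CPM, SD, n = 3). The Cre libraries had 0, 1.95 and 3.92 counts (3.55 ± 3.64 CPM, SD, n = 3), and the 7.28 CPM of Cre replicate 2 rests on 1.95 counts in the shallowest library. The ratio of Flpo to Cas9 was 266 against a single count in Cas9, and 190 without TMM scaling. The 95% counting interval of the first value, 47.7 to 10540, is no test of the groups. The ratio of Flpo to Cre was 24.0 (95% interval 11 to 65.7), and 13.9 without TMM scaling.

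ENO1P1 was both the most abundant and the most uneven. It had 1089.8, 87.3 and 1234.6 counts in Flpo, or 188.01, 22.3 and 197.1 CPM (mean 136 ± 98.4, SD, n = 3), an 8.83-fold spread with the low value in replicate 2. Replicate 2 was thus the highest Flpo library for KCNN2 and the lowest for ENO1P1. All Cas9 libraries were at 0, and Cre had 0, 2.18 and 0 counts (2.72 ± 4.70 CPM, SD, n = 3). By the pooled deposited counts, ENO1P1 was at least 325-fold higher in Flpo than in Cas9, with the floor of 3 counts over the group. Without TMM scaling this bound was 231-fold. These bounds cover counting error only. They do not cover the division of reads with EDARADD, which holds every ENO1P1 word and had 14, 23 and 161 counts in Cas9. The ENO1P1 ratio of Flpo to Cre was 263 (95% interval 72.8 to 2174), which rests on 2 counts in 1 Cre library, and 152 without TMM scaling.

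**Figure D1:**
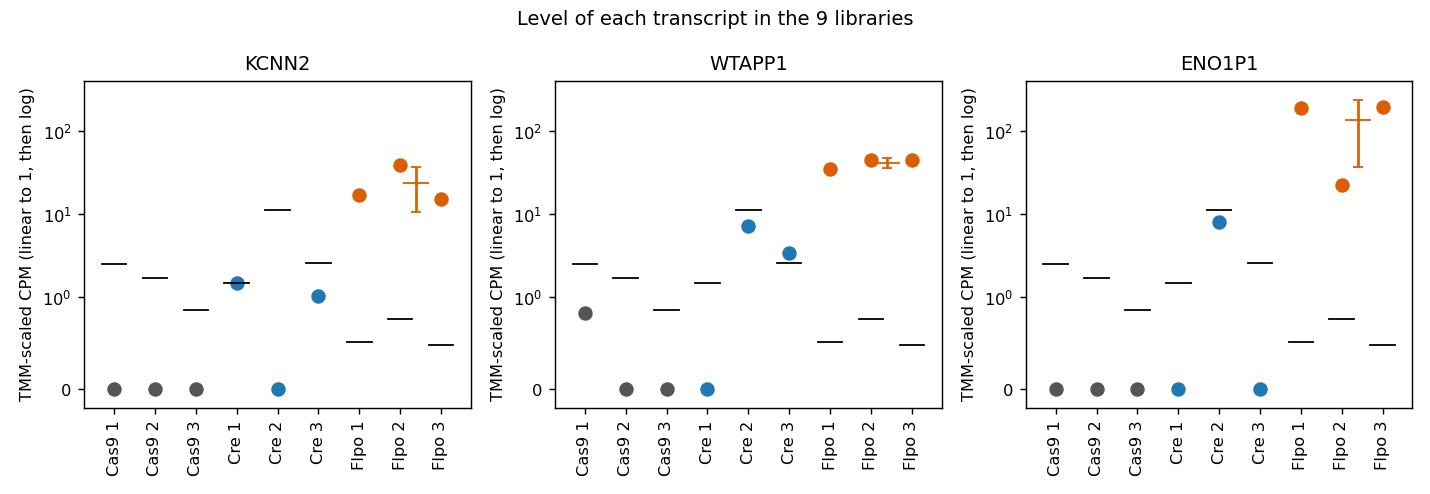
Level of KCNN2, WTAPP1 and ENO1P1 in each library (points, TMM-scaled CPM on an axis that is linear to 1 and logarithmic above), with the floor of 3 counts in that library (black dashes) and the Flpo mean ± SD (n = 3). Every Flpo point lies above every Cas9 and Cre point, and the lowest is the 15.2 CPM of KCNN2 in Flpo replicate 3.

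For each of the 3 transcripts the groups ran Flpo, Cre, Cas9 from highest to lowest mean. Cre and Cas9 did not differ beyond their spread, since both held libraries at 0 and their ranges overlapped. The name "Flpo-only" does not hold to the letter: KCNN2 was above 0 in 2 of the 6 other libraries, WTAPP1 in 3 and ENO1P1 in 1, with at most 3.92 counts. Every Flpo library lay above every other library for 3 of 3 transcripts, a pattern that 9.63% of the 11905 genes tested showed. The 3 were chosen for a large rise of Flpo over Cas9, which favours this pattern, so nothing is read from that count.

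Corrected for the length of the longest transcript, the order within Flpo was ENO1P1 at 104 ± 75.5 CPM per kb, WTAPP1 at 15.7 ± 2.10 and KCNN2 at 5.77 ± 3.16 (SD, n = 3). In Flpo replicate 2, however, ENO1P1 and WTAPP1 were close, at 17.1 and 16.9 CPM per kb. The ranges of KCNN2 (3.71 to 9.40) and WTAPP1 (13.3 to 17.0) did not overlap.

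The depth of the other libraries can be put as the count each would hold at the pooled Flpo level. As the 3 were chosen for a large rise over Cas9, an excess of these counts over the deposited Cas9 counts is fixed by the choice, and nothing is read from it. For KCNN2, at 21.7 CPM, the Cas9 libraries would hold 26.1, 37.8 and 75.9 counts, where each has 0. The Cre libraries would hold 44.5, 5.80 and 25.2, where they have 3.00, 0 and 1.20. Cre replicate 2 thus gives the weakest contrast for KCNN2, with 0 listed against 5.80, or against 4.08 at the level of the lowest Flpo library. Both lie only a little above the floor of 3 counts. For WTAPP1 the same sum gave 49.7, 71.9 and 144.5 counts in Cas9 and 84.7, 11.1 and 48.1 in Cre. For ENO1P1 it gave 182 to 529 counts in Cas9 and 40.4 to 310 in Cre. At the level of the lowest Flpo library, ENO1P1 would hold 26.9 to 78.2 counts in Cas9, and in Cre replicate 2 it would hold 5.98 where 2.18 are listed.

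**Figure D2:**
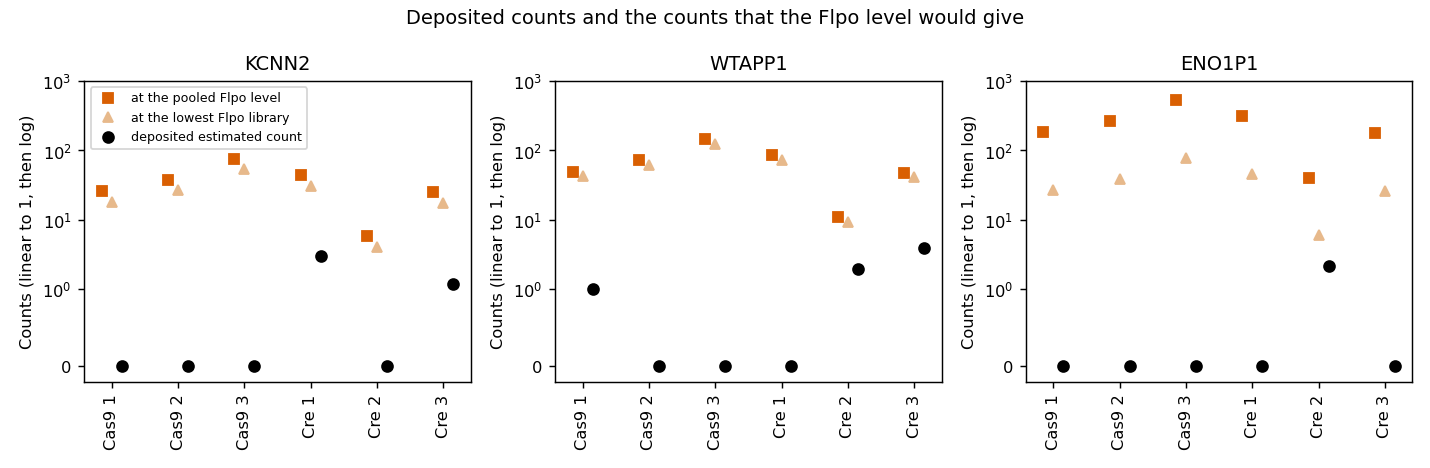
Deposited estimated counts (black points) in the 6 Cas9 and Cre libraries, with the counts that the pooled Flpo level (squares) and the lowest Flpo library (triangles) would give at that library's depth, on an axis that is linear to 1 and logarithmic above. The gaps are smallest in Cre replicate 2, the shallowest library, where WTAPP1 has 1.95 counts against 11.1 and KCNN2 has 0 against 5.80.

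Among all 35876 symbols, 18482 stayed at 0 or 1 count across the Cas9 libraries. Of those, 3 had at least 50 in every Flpo library, namely KCNN2, WTAPP1 and ENO1P1. These limits act on the values that chose the 3, so nothing is read from that count. The pseudogene ACTBP7 had 0 in every Cas9 and Cre library and 66, 40 and 86 counts in Flpo. Another pseudogene, GAPDHP62, had 0 in every Cas9 library and 549, 29.2 and 746 counts in Flpo. KCNN2, with a mean of 57.7 counts over Cas9 and Flpo libraries, lay just inside the limit of 50. Just outside by rank was KRT18P31, a keratin pseudogene, with 0, 0 and 2 counts in Cas9 and 430, 38.0 and 395 in Flpo. Among the 26 genes called higher in Flpo than in Cas9 (0.218% of those tested), 9 (34.6%) are annotated as pseudogenes, against 554 of the 11905 tested (4.65%). These shares are a description, since WTAPP1 and ENO1P1 are among the 9.

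The parents WTAP and ENO1 were not used to choose the transcripts, so they were tested. EDARADD was not, since 2 of its transcripts hold every word of ENO1P1, although each also has words of its own. These transcripts, EDARADD-202 and EDARADD-204, shared 42.6% and 47.2% of their words with other genes. WTAP had 17.0, 44 and 157 counts in Cas9, 48.8, 3 and 4.94 in Cre and 510, 210.0 and 640 in Flpo. Its level was 28.1 ± 15.5 CPM in Cas9, 13.1 ± 9.90 in Cre and 81.2 ± 24.9 in Flpo (SD, n = 3 each). The Flpo libraries lay above the others, as for 9.63% of all genes tested. WTAP was lower in Cre than in Flpo, with a log2 fold change of −2.56 (SE 0.67) and an adjusted p of 0.0247 in edgeR's quasi-likelihood test. With library totals in place of TMM this became −1.80 with an edgeR adjusted p of 0.0552, which is not past the threshold of 0.05. Flpo against Cas9 was not past it either, at 1.52 (SE 0.62) and an edgeR adjusted p of 0.199.

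ENO1 had 178, 655 and 3314 counts in Cas9, 601, 60.1 and 97.1 in Cre and 23547, 3478 and 23514 in Flpo. Its level was 2902 ± 1750 CPM in Flpo, 490 ± 411 in Cas9 and 200.2 ± 107 in Cre (SD, n = 3 each). As with ENO1P1, Flpo replicate 2 was the lowest of its group. ENO1 was lower in Cre than in Flpo by the edgeR test (log2 fold change −3.86, SE 0.95, adjusted p 0.0206). In Flpo against Cas9 the value was 2.56 (SE 0.89) with an edgeR adjusted p of 0.141, and DESeq2 gave an adjusted p of 0.0225.

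EDARADD had 14, 23 and 161 counts in Cas9, 15.5, 1.82 and 6 in Cre and 1165, 236 and 1432 in Flpo. The Flpo libraries lay above all others, as for 9.63% of all genes tested, with replicate 2 again the lowest. Its level was 163 ± 90.3 CPM in Flpo, 23.6 ± 19.4 in Cas9 and 6.50 ± 1.23 in Cre (SD, n = 3 each), given as a description.

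Neither WTAP nor ENO1 passed the edgeR test in Cre against Cas9, with adjusted p values of 0.619 and 0.620. Calls between groups rest on few libraries. In Cre against Flpo, no gene of the table passed in edgeR without Cre replicate 2, without Cre replicate 3 or without Flpo replicate 1, while 405 did without Flpo replicate 3, 1386 without Cas9 replicate 2 and 5559 without Flpo replicate 2, against 2440 with all 9 libraries. In Flpo against Cas9, 2685 genes passed without Flpo replicate 2, against 27 with all libraries, and ENO1 was then among them.

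The pseudogene counts can be set against those of the parent and the host in the same library. That ENO1P1 and WTAPP1 are at or near 0 in Cas9 is how they were chosen, so the Cas9 shares are a description. ENO1P1 was 4.63%, 2.51% and 5.25% of ENO1 in Flpo and 0% in all Cas9 libraries. At the pooled Flpo share of 4.77%, Cas9 replicate 3 would hold 158 ENO1P1 counts and Cas9 replicate 2 would hold 31.2, where both have 0. In Cre, replicate 1 would hold 28.7 and has 0, and replicate 3 would hold 4.63 and has 0. Cre replicate 2 had 2.18 ENO1P1 counts and would hold 2.87, a share of ENO1 of 3.63%, which lies within the Flpo range.

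Against EDARADD, ENO1P1 was 93.6%, 37.0% and 86.2% in Flpo and again 0% in Cas9. At the pooled Flpo share, Cas9 replicate 3, with 161 EDARADD counts, would hold 137 ENO1P1 counts. The 120% in Cre replicate 2 is a ratio of 2.18 to 1.82 counts. WTAPP1 was 39.9%, 83.2% and 43.9% of WTAP in Flpo, a pooled 48.5%, at which Cas9 replicate 3 would hold 76.1 counts and Cre replicate 1 would hold 23.7, both listed at 0. In Cre replicates 2 and 3 the WTAPP1 share was 65.0% and 79.3%, within the Flpo range but on fewer than 5 counts of either gene in each.

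**Figure D3:**
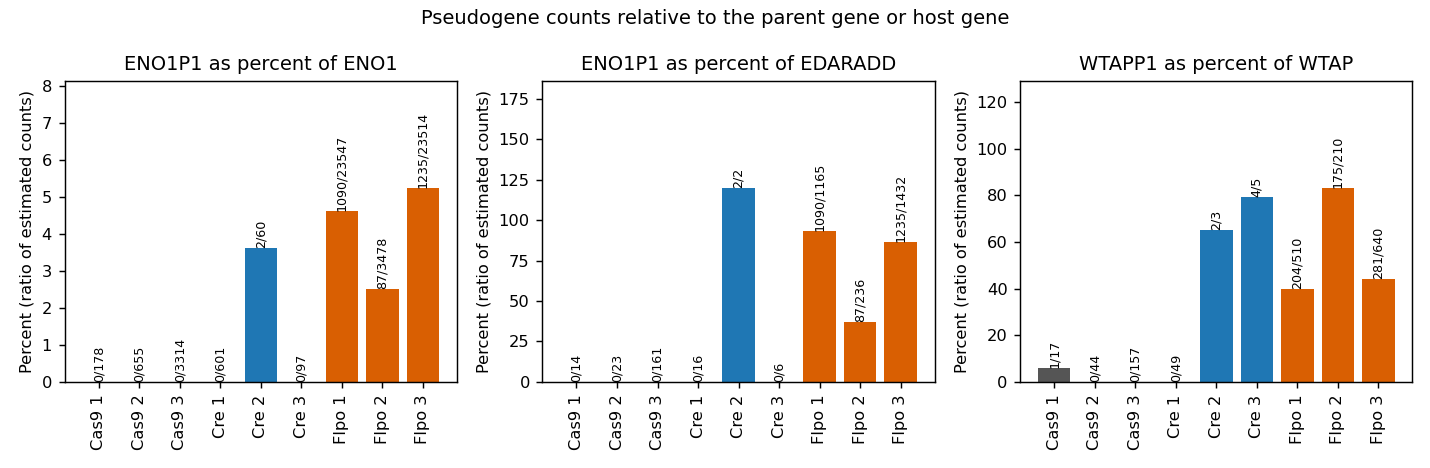
Estimated counts of ENO1P1 as a percentage of ENO1 and of EDARADD, and of WTAPP1 as a percentage of WTAP, in each library (bars from 0, with the 2 rounded counts above). The Flpo shares are 2.51% to 5.25%, 37.0% to 93.6% and 39.9% to 83.2%, and ENO1P1 is at 0% in each Cas9 library.

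The estimated counts of the 3 transcripts were not exact whole numbers in 3 of 3 Flpo libraries each. This is common in the table, where 57.3%, 48.7% and 56.6% of all values above 0 in Flpo replicates 1 to 3 were not whole. Fractional counts arise when a quantifier divides reads among transcripts they match equally well. How the reads were divided here, and whether strand was used, is not given in the sources used here. The shares above therefore describe the deposited values, and uncertain division of reads between ENO1P1 and EDARADD bears on both genes.

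KCNN1 and KCNN3, which encode SK1 and SK3, were detected in all 3 groups. KCNN1 was at 18.7 ± 10.04 CPM in Cas9, 26.5 ± 3.76 in Cre and 9.22 ± 8.85 in Flpo, and KCNN3 at 25.5 ± 21.8, 32.6 ± 19.1 and 10.9 ± 10.3 (SD, n = 3 each). Both had their lowest mean in Flpo, where KCNN2 had its highest. Neither passed the edgeR test in Flpo against Cas9, with log2 fold changes of −1.0 and −1.22 and adjusted p values of 0.437 and 0.400. In Cre against Flpo the edgeR values were 1.53 and 1.66 with adjusted p values of 0.129 and 0.137. With library totals KCNN1 reached 2.26 and an edgeR adjusted p of 0.0456. A single library decides these calls. Without Flpo replicate 2, KCNN1 and KCNN3 were at −2.13 and −2.35 in Flpo against Cas9 (edgeR adjusted p 0.0380 and 0.0451) and at 2.66 and 2.80 in Cre against Flpo (0.00831 and 0.0128). In Flpo against Cas9, KCNN1 was at −0.50 without Cas9 replicate 1 and −0.58 without Flpo replicate 3, and KCNN3 at −0.27 without Cas9 replicate 1. KCNN4, the gene of the intermediate-conductance channel, had 2 counts in all. Per kb of longest transcript, Flpo libraries held KCNN2 at 5.77 ± 3.16, KCNN1 at 2.54 ± 2.44 and KCNN3 at 0.831 ± 0.787 CPM (SD, n = 3 each).

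Of 17 listed channel genes and regulators (calmodulins, and subunits of the kinase CK2 and the phosphatase PP2A that act on SK channels, with BK channel genes), 14 were tested. In Flpo against Cas9, where 0.227% of all genes were called by edgeR (0.218% higher and 0.0084% lower in Flpo), 0 of the 14 passed. An unadjusted p under 0.05 was found for 2 (14.3%), against 2378 of all 11905 genes (20%). Their median log2 fold change was 0.29 against 0.05 for all genes. In Cre against Flpo, where 20.5% of genes were called (6.17% higher and 14.3% lower in Cre), 5 of 14 (35.7%) were lower in Cre and 0 higher. These were PPP2R1A (−2.99), CALM2 (−2.91), CSNK2A2 (−2.79), PPP2CA (−2.45) and CSNK2B (−2.12). PPP2R1A is the scaffold and PPP2CA a catalytic subunit of PP2A, CALM2 is a calmodulin gene, and CSNK2A2 and CSNK2B are CK2 subunits. With library totals in place of TMM, CSNK2A2, CSNK2B and PPP2CA were no longer past the threshold, all with the same sign. The list median was −0.53 against −0.34 for all genes. That scaling turns the balance of all calls: 30.1% of the 2440 genes called were higher in Cre with TMM, against 70.8% of 2879 with library totals, and the median of all genes moved from −0.34 to 0.44.

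In the m6A list, 15 genes were tested. In Flpo against Cas9, 0 passed, where 0.227% of all genes did, and the median was 0.76. An unadjusted p under 0.05 was found for 4 (26.7%), against 20% of all genes. In Cre against Flpo, 2 were lower and 1 higher, with a median of −1.13. The 3 of 15 called (20%) are near the 20.5% of all genes, so the share is no result about the list. WTAP and YTHDF2, an m6A reader that directs transcripts to decay (−2.11), were lower in Cre. METTL14, the RNA-binding partner of the methyltransferase, was higher in Cre at 1.68 (SE 0.53) with an edgeR adjusted p of 0.0410, opposite in direction to WTAP. That call was lost with no filter (edgeR adjusted p 0.0807) and with only the 2 groups fitted (0.0517). METTL3, the catalytic subunit, was at −2.03 with an edgeR adjusted p of 0.0521. With only the 2 groups fitted YTHDF2 did not pass (edgeR adjusted p 0.0516), and with library totals neither WTAP nor YTHDF2 passed, with the same sign, while METTL14 was at 2.47.

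The enolase list holds the enolases and nearby steps of glycolysis. In it, 11 of 13 genes were tested. In Flpo against Cas9, 0 passed, where 0.227% of all genes did. An unadjusted p under 0.05 was found for 5 (45.5%), against 20% of all genes. The median log2 fold change was 1.87 against 0.05 for all genes. In Cre against Flpo, 5 (45.5%) were lower in Cre, against 14.3% of all genes, and 0 higher, with a median of −2.18. The largest falls were in LDHB (−4.24) and LDHA (−4.18), the subunits of lactate dehydrogenase, followed by ENO1 (−3.86). PGAM1, the phosphoglycerate mutase one step before enolase, was at −3.85 and PGK1, the phosphoglycerate kinase before it, at −2.17. PGK1 did not pass with library totals or with only the 2 groups fitted (edgeR adjusted p 0.0548), with the same sign. The tissue-restricted enolases did not pass: in Cre against Flpo, ENO2 was at 0.66 (edgeR adjusted p 0.503) and ENO3 at 0.89 (0.231), although ENO3 did with library totals (1.71, edgeR adjusted p 0.0455). In Flpo against Cas9 they were at −0.92 and −0.14, with edgeR adjusted p values of 0.494 and 0.905. The other ENO1 pseudogenes were at or near 0, with ENO1P2 and ENO1P4 at 0 and ENO1P3 at 3 counts, all in Flpo replicate 2. In Cre against Cas9, edgeR called 0 of 11905 genes (0.0%), 879 had an unadjusted p under 0.05 and DESeq2 called 4, and 0 genes of these 3 lists passed in edgeR.

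**Figure D4:**
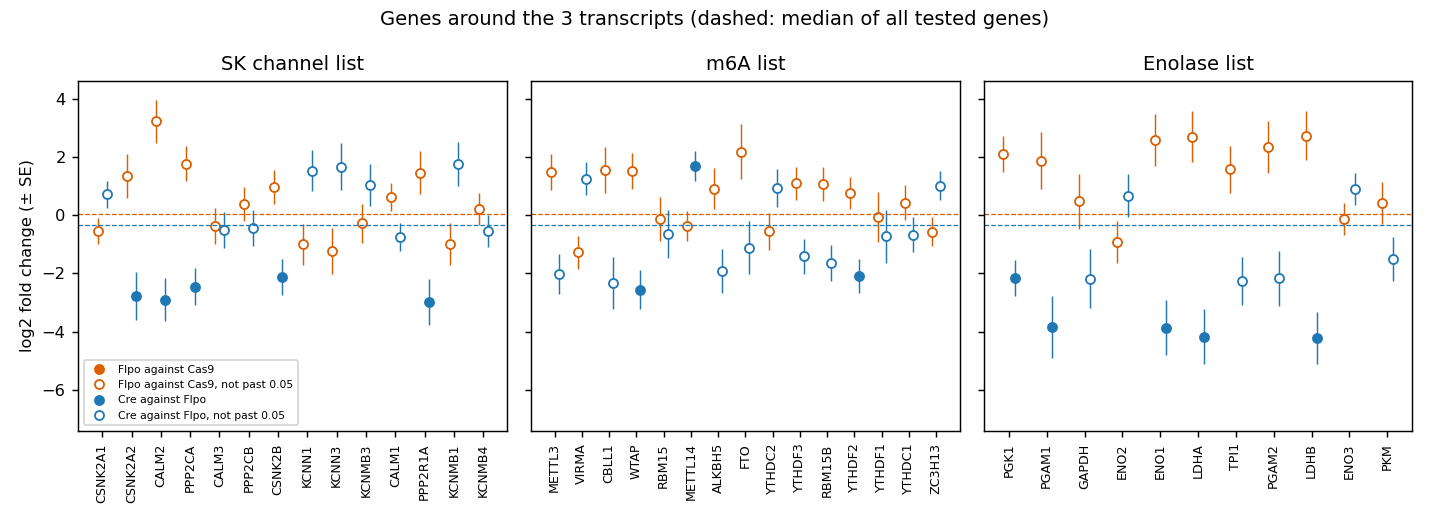
Log2 fold change ± SE of the tested genes of the SK channel, m6A and enolase lists in Flpo against Cas9 (orange) and Cre against Flpo (blue), filled where edgeR's adjusted p is under 0.05, with the median of all tested genes dashed. No orange point is filled, and the filled blue points run from −4.24 (LDHB) to 1.68 (METTL14).

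The genes around each transcript were then compared with it. Near KCNN2, 1 gene within 500 kb was tested, YTHDC2, an m6A-binding helicase that ends 460 kb before it, and it was not called in any comparison. The nearest tested gene on the other side was PGGT1B, 708 kb away. The metalloproteinase genes that WTAPP1 runs through or past stayed near 0: MMP1 had 4 counts in all 9 libraries, MMP3 had 1, and MMP10 had 12, 1 and 23 in Flpo and 1 elsewhere. None of the 9 was deep enough to test. Of 4 tested genes within 500 kb of WTAPP1, 2 were lower in Cre than in Flpo, where 14.3% of all genes were, namely TMEM123 (−3.13), a cell-surface mucin-like protein gene, and DCUN1D5 (−3.10), whose product promotes cullin neddylation.

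Around ENO1P1, 6 genes within 500 kb other than its host were tested, and in Cre against Flpo 3 were lower and 1 higher, against 14.3% and 6.17% of all genes. RPSAP21, a ribosomal protein pseudogene, was at −6.34. It lies on the same strand within the span of MTR, the methionine synthase, so these are not separate loci. Whether reads were shared between RPSAP21 and other genes was not tested. MTR was at −2.41 and NID1, the basement membrane protein nidogen, at −2.22, while LGALS8, a galectin that starts 33.5 kb after ENO1P1, was at 2.27. NID1 did not pass with library totals, with the same sign. ERO1B, the nearest tested gene on the other side, was not called. In Flpo against Cas9 the edgeR test called 0 of the 11 tested neighbours of the 3 transcripts. It called only 0.227% of all genes, so the 0 is no result about these loci.

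**Figure D5:**
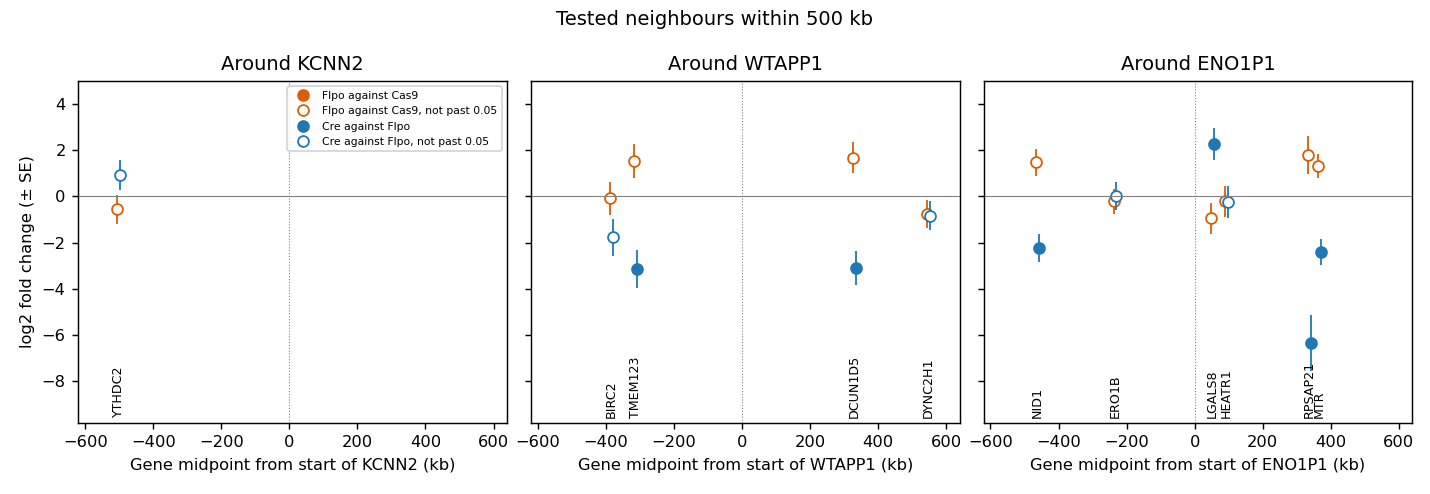
Log2 fold change ± SE of the tested genes within 500 kb of KCNN2, WTAPP1 and ENO1P1 by distance of the gene's midpoint from the start of the transcript (kb), in Flpo against Cas9 (orange) and Cre against Flpo (blue), filled where edgeR's adjusted p is under 0.05. EDARADD, the host of ENO1P1, is not shown, and LGALS8, beside ENO1P1, is at 2.27 in Cre against Flpo.

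The genes most like each transcript were found by Pearson correlation of log2 TMM-scaled CPM (prior count 1) over the 9 libraries, as a description. All points share their libraries, and depth differs by group. For KCNN2 these were NPC1, a lysosomal cholesterol transporter (r = 0.977), IL15, a cytokine (0.940), and ACTBP7, an actin pseudogene (0.937). For WTAPP1 they were CARD8 (0.961), an inflammasome sensor, ATP5F1C (0.960), a subunit of mitochondrial ATP synthase, and C3orf70 (0.960). ENO1P1 was most like the pseudogenes GAPDHP62 (0.995) and KRT18P31 (0.984), and FSTL4 (0.978).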

How the data were processed

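Per the labels' protocols, TRIzol extraction was followed by TruSeq RNA library preparation. The deposited values of the 9 libraries are estimated counts by gene symbol without normalization, and the submitters' processing notes name Salmon 0.14.1 and hg38 without a role. The annotation, filters and use of strand are not given in the sources used here. The estimated counts were rounded to whole numbers for the tests, since the design had been written for whole counts. edgeR 4.0.16 (R 4.3.3) fitted all 9 libraries with TMM scaling and its default filter, which left 11905 of 35876 symbols. Quasi-likelihood tests were Benjamini-Hochberg adjusted over these, with a threshold of 0.05. The fit was tested on simulated data with less spread between replicates than these libraries have, which does not show how well it works here. Positions, transcripts and words of 31 bases come from GENCODE release 29 (GRCh38), matched by symbol. Intervals of pooled ratios are exact binomial. The members, lists and tests were chosen with earlier results of these data known. Named genes are the members, the parents, the host gene (untested), the family members, the called genes of each list (beyond the largest 3, chosen after their values were seen), called or nearest neighbours, and the 3 genes most like each member. Alternatives were other scaling, DESeq2 1.42.0, no filter, the 2 groups alone, a replicate block and leaving out each library.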

Additional observations from a re-analysis of the deposited data

Results flagged for a closer look

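The difference between Cre and Flpo is the difference between their effects against the same Cas9 libraries, and it passed edgeR's quasi-likelihood test (adjusted p under 0.05 over all genes) for 19 of the 27 genes tested and described, a set that includes genes named because they passed. Over all 11905 genes 20.5% passed, and no gene passed without Cre replicate 2, without Cre replicate 3 or without Flpo replicate 1. The log2 fold changes of Cre against Flpo were −2.56 for WTAP and −3.86 for ENO1. In the SK channel list they were −2.91 for CALM2, −2.79 for CSNK2A2, −2.12 for CSNK2B, −2.45 for PPP2CA and −2.99 for PPP2R1A. In the m6A list they were 1.68 for METTL14 and −2.11 for YTHDF2. In the enolase list they were −4.18 for LDHA, −4.24 for LDHB, −3.85 for PGAM1 and −2.17 for PGK1. Among the neighbours they were −3.10 for DCUN1D5, −3.13 for TMEM123, 2.27 for LGALS8, −2.41 for MTR, −2.22 for NID1 and −6.34 for RPSAP21.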

How the results depend on the processing

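Genes called in Flpo against Cas9 numbered 27, and 1101 with DESeq2, 1169 with no filter, 12 with library totals (chosen after seeing the data), 0 with only the 2 groups, and 0 to 2685 with 1 library left out (0 without Cas9 replicate 1 or 2, Cre replicate 2, or Flpo replicate 1 or 3, 12 without Cre replicate 3, 74 without Cas9 replicate 3). Cre against Flpo gave 2440, and 4010 with DESeq2 and 0 to 5559 with 1 library left out. Cre against Cas9 gave 0, and 4 with DESeq2, 51 with no filter and 0 to 0 with 1 library left out. With the replicate block the first 2 counts became 6 and 1568, and calls of CALM2, CSNK2A2, CSNK2B, METTL14, PGK1 and YTHDF2 were lost. Same-numbered libraries did not consistently deviate together (correlations −0.53 to 0.52), nor did each correlate best with its own number. With 3 libraries a group, such correlations cannot decide whether the numbers pair the samples, and the labels do not say.

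WTAP in Cre against Flpo was −1.80 with library totals and −3.65 to −2.10 with 1 library left out, and its call was lost without Cas9 replicate 2, Cre replicate 2 or 3, or Flpo replicate 1 or 3. ENO1 in Flpo against Cas9 was called with DESeq2 (2.56), with no filter (2.57) and without Flpo replicate 2 (2.12 to 3.46 over the libraries left out). ENO1 in Cre against Flpo was −4.29 to −3.49, its call lost without Cre replicate 2 or 3 or Flpo replicate 1 or 3. Uncalled values turned sign for ERO1B in Cre against Flpo (−0.0026 with DESeq2, −0.0497 with no filter, −0.19 to 0.23 with 1 library left out) and for ENO3 in Flpo against Cas9 (−0.35 to 0.16). WTAPP1 in Flpo was 30.5 CPM without TMM. Of the 3 genes most like each transcript, other priors or Spearman correlation kept 1 for KCNN2, 0 to 2 for WTAPP1 and 1 to 2 for ENO1P1. The causes were not tested. Depth limits Cre replicate 2 most, where 3 counts are 11.2 CPM.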
